A study of Mus musculus with 16 samples.

Results

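The genes of oxidative phosphorylation were followed across 16 bead arrays of mouse prostate tissue, through carcinomas, dorsal-lateral prostate and wild-type prostate. They were taken from the platform annotation as every symbol that begins with Nduf, Uqcr or Atp5, with Sdha to Sdhd, or with Cox4 to Cox8. This gave 89 genes of the 16593 named genes on the array, measured by 111 of 25697 probes. For each of the 16 genes with more than 1 probe, the probe with the highest mean intensity over all arrays was used. The list holds 33 genes of complex I, 3 of complex II, 8 of complex III, 18 of complex IV, 16 of complex V, and 11 other matched genes, which are assembly factors, the supercomplex factor Cox7a2l and the pseudogene Ndufs5-ps. Ndufa4 was counted with complex IV, where the protein is now placed. Of the 89 genes, 81 passed an intensity of 200 on at least 1 array, and 8 did not, among them Ndufs1, Ndufab1, Uqcrfs1, Uqcrq and Atp5k. Subunit genes without a named probe, such as Sdha and Ndufa4l2, were not analysed here.

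Complex I passes electrons from NADH, and complex II from succinate, to ubiquinone in the inner mitochondrial membrane. Complex III hands them to cytochrome c and complex IV to oxygen, and complexes I, III and IV pump protons that drive ATP synthesis by complex V. Several complex IV subunits exist as tissue isoforms, with Cox6a2, Cox7a1 and Cox8b in heart and skeletal muscle and Cox6a1, Cox7a2 and Cox8a in most other tissues, and Cox7a1 and Cox8b are also made in brown fat. The secretory epithelium of the normal prostate is known for exporting citrate that other tissues would oxidise.

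TRAMP mice carry SV40 T antigen under a probasin promoter, which is active in prostate epithelium, so that lesions and carcinomas arise with age. Mice received vehicle, AGN, the root extract of Angelica gigas Nakai, or D/DA, that is decursin and decursinol angelate, which are pyranocoumarins of that root. Neuroendocrine carcinomas (NECa) of TRAMP mice gave 3 vehicle and 3 AGN arrays, and wild-type whole prostates taken at 24 to 28 weeks gave 2 arrays, whose strain label reads TRAMP although their genotype label reads wild type. Dorsal-lateral prostate (DLP) gave 1 array for each of C57BL/6 wild type and vehicle, AGN and D/DA TRAMP mice at 16 weeks and again at 28 weeks. The design text gives 10 and 14 mice for AGN and 11 and 13 for D/DA at these ages, and the labels do not say whether RNA was pooled for an array. The sources used here state neither doses nor the age of the mice with carcinomas.

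Values are linear normalized intensities, and differences are given on the log2 scale with the standard error (SE) of a limma fit over all 25697 probes. A gene was called when its Benjamini-Hochberg adjusted p was under 0.05 in a two-sided test, and "rose" or "fell" is used for called genes only. The median intensity of an array lay between 151 and 166 and its lowest between 113 and 139, so the background was not at 0 and differences that reach down to about 150 are lower estimates. Replicate arrays correlated at 0.969 to 0.987 over all probes. Nothing in the labels says that replicates came from separate mice, so the p-values rest on the spread of these arrays, which may be technical. In bulk tissue, fewer cells of a type and less RNA per cell cannot be told apart.

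The mean log2 intensity of each complex gave the first view of the tissues. Complex IV genes averaged 11.10 and 10.86 in the wild-type prostates, 10.13, 10.17 and 10.18 in the vehicle NECa and 10.16, 10.37 and 10.15 in the AGN NECa. Complex I genes averaged 11.23 and 11.27 in the wild-type prostates, 10.90, 10.91 and 10.85 in vehicle NECa and 10.92, 11.01 and 10.79 in AGN NECa. For both complexes every carcinoma lay below both wild-type prostates. The complex IV mean includes the muscle isoform genes Cox6a2, Cox7a1 and Cox8b, which had the lowest differences of the list, and the mean without them was not computed. Complex III genes stood at 11.23 and 11.22 in the wild-type prostates and between 10.73 and 11.00 in the 6 carcinomas, which were again all lower. Complex V genes, at 11.41 and 11.42 in the wild-type prostates and between 11.24 and 11.53 in the carcinomas, overlapped. Complex II genes and the assembly factors also overlapped between carcinomas and prostates, at 9.65 to 9.86 and 9.19 to 9.31 in the carcinomas. These means are of the deposited values and were not set beside equally bright probes. Over the 2521 other probes with a mean intensity of at least 1000, the median difference from wild-type prostate was -0.33 in vehicle and -0.36 in AGN NECa. The lower means are therefore not read as particular to these complexes.

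Among the 8 DLP arrays, the wild-type array at 28 weeks had the highest mean of every complex and of the assembly factors. Its complex I mean was 11.32, against 11.16 in vehicle, 10.88 in AGN and 10.88 in D/DA at that age. At 16 weeks the complex I means were closer together, at 11.12, 11.04, 11.00 and 11.06 in wild type, vehicle, AGN and D/DA. Complex IV was lowest in the wild-type array at 16 weeks, at 10.36, where the muscle isoform genes Cox6a2, Cox7a1 and Cox8b were at 182, 321 and 203.

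Against wild-type prostate, vehicle NECa had lower RNA of the muscle isoforms of complex IV and of several small subunits of complexes I and III, with 1 subunit gene of complex V higher. Of the 89 genes, 28 fell, 2 rose and 59 did not pass, while 28.7% of all probes were called, 16.3% lower and 12.4% higher. The median difference was -0.25 over the 89 genes and -0.00 over all probes. Strongly expressed genes were lower in general: over the 58 members with a mean intensity of at least 1000, the median was -0.39, and over the 2521 other probes of that level it was -0.33, with 28 of the 58 called lower against 43.3% of the others. None of the 58 was called higher, against 22.2% of the others, and 8 of the 58 were above 0, against 36.9%. The lower calls alone were thus near the background of equally bright probes, and whether the members differ from those probes was not tested. The account below turns on the individual genes.

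The 3 muscle isoform genes of complex IV had the lowest differences of the list. Cox8b, the muscle and brown fat isoform of a small subunit of cytochrome oxidase, measured 3497 and 3149.6 in the wild-type prostates, 151, 151 and 159 in vehicle NECa and 154, 258 and 192 in AGN NECa. All 6 carcinomas were far below both prostates, and most of them were near the array median. The difference of vehicle NECa from wild type was -4.43 ± 0.19 (limma adjusted p = 2.82e-08). Cox7a1 measured 2940.4 and 1495 in the prostates, 297, 472 and 528 in vehicle NECa and 424, 603 and 409 in AGN NECa, again without overlap, and fell by 2.32 ± 0.31 (limma adjusted p = 0.00013). Cox6a2 measured 4579 and 385 in the prostates, so the controls themselves differed widely, and 163, 180.3 and 169 in vehicle NECa. It fell by 2.96 ± 0.70 (limma adjusted p = 0.00684), and by 1.17 without wild-type prostate 1.

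Their counterparts in most other tissues differed less. Cox6a1 measured 10354 and 9913 in the prostates and 8765, 8428 and 7399 in vehicle NECa, a difference of -0.31 ± 0.11 that did not pass (limma adjusted p = 0.0656). Cox7a2 overlapped between the groups, at 261 and 333 in the prostates and 308, 360.4 and 340.1 in vehicle NECa (limma adjusted p = 0.464). Cox8a was the exception, with 11636 and 13748 in the prostates and 6783, 6553 and 7506 in vehicle NECa, and fell by 0.87 ± 0.18 (limma adjusted p = 0.00342).

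**Figure D1:**
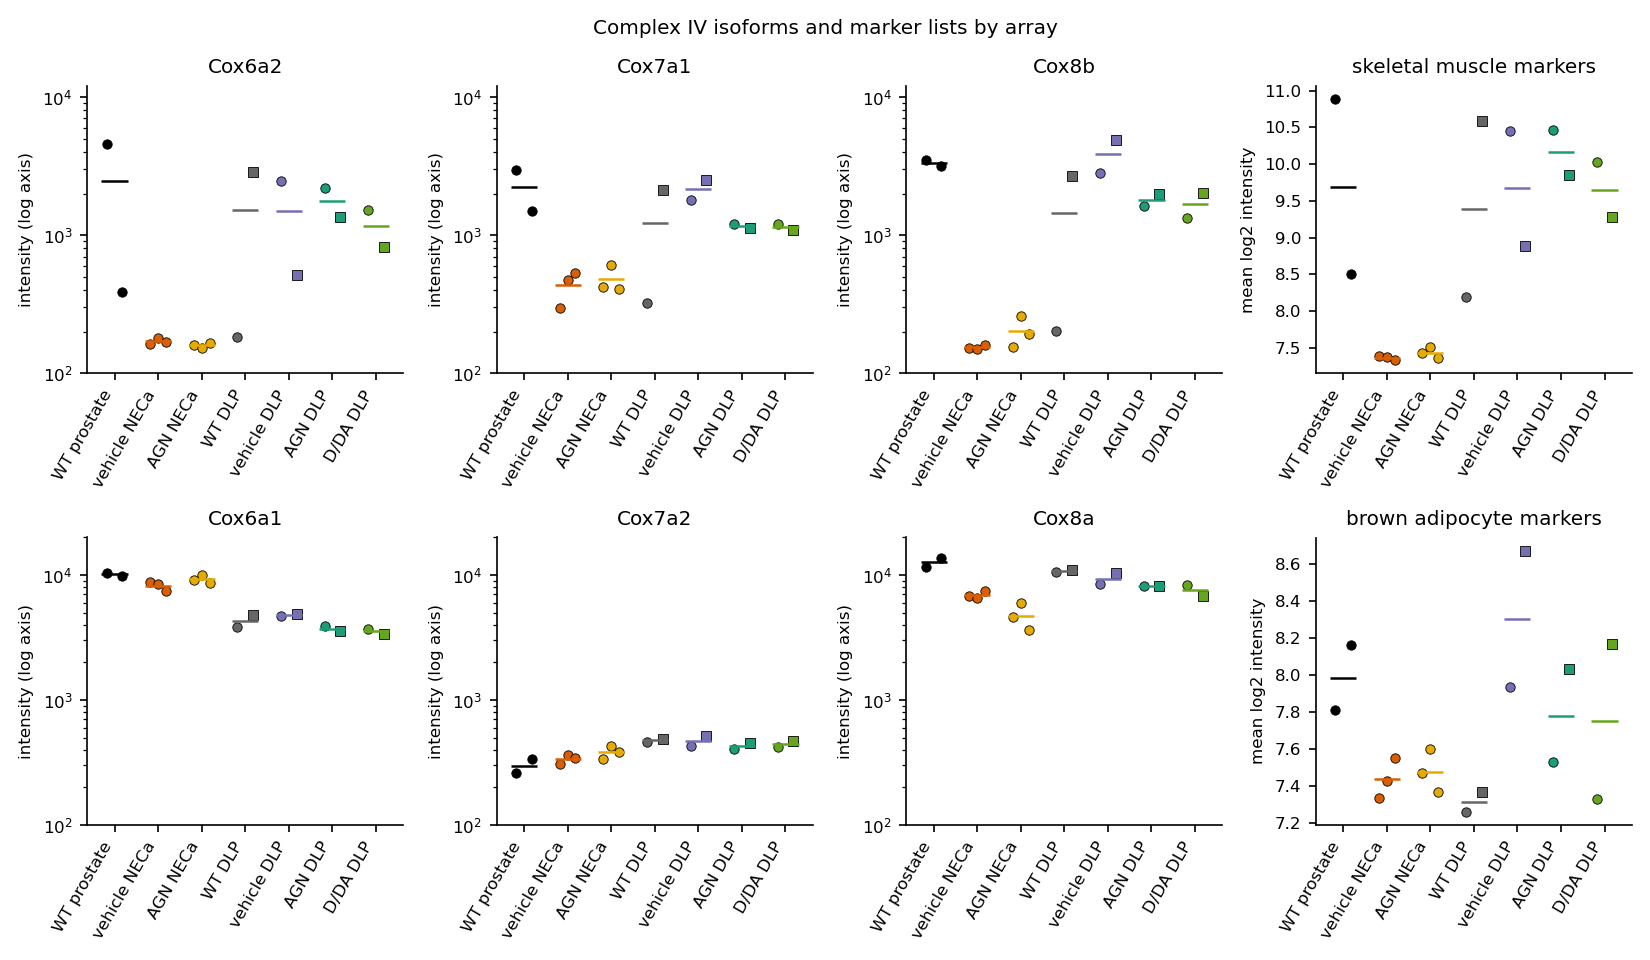
Intensity of the 3 muscle isoform genes and the 3 widely expressed isoform genes of complex IV on each of the 16 arrays, by group on a log axis, with the mean log2 intensity of the skeletal muscle and brown adipocyte markers. Circles are prostates, carcinomas and 16-week DLP, squares are 28-week DLP and lines are group means. Cox8b lay between 151 and 258 in the 6 carcinomas and at 3497 and 3149.6 in the wild-type prostates.

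Markers of muscle and of several other cell types moved with these genes. Of 18 skeletal muscle markers, 13 fell in vehicle NECa, and the summed intensity of the list was 16611.5 and 81900.8 in the prostates and 2927 to 3546 in the 6 carcinomas. Ckm, the muscle creatine kinase, was at 3228 and 407 in the prostates and between 144 and 165 in the carcinomas, and Acta1, skeletal muscle actin, was at 19176 and 9315 in the prostates and between 197 and 931 in the carcinomas. With the mean level of these markers as a covariate, Cox8b was at -4.26 (limma adjusted p = 1.93e-05) and Cox7a1 at -1.36 (limma adjusted p = 0.0842). Cox6a2 was at 0.50 (limma adjusted p = 0.212). Every carcinoma lay below both prostates in this mean level, and the carcinomas differed little among themselves. The slope thus rests mainly on the wild-type prostates. These covariate values are extrapolated, and no split between the isoform genes is read from them. Wild-type prostate 2 held less of the muscle RNA than prostate 1 and far less Cox6a2, while its Cox8b was close to that of prostate 1. Over the 89 genes, the covariate left 2 higher and 10 lower calls. Among 6 brown adipocyte markers 2 fell: Ucp1 was at 281 and 588 in the prostates and 131 to 166 in the carcinomas, and Cidea at 640.0 and 1221 in the prostates and 155 to 188 in the carcinomas. The other 4 did not pass: Ppargc1a lay the other way, at 191 and 221 in the prostates and 234 to 521 in the carcinomas, and Elovl3, Cpn2 and Kng2 were at most 169 on all 8 of these arrays. Lists of other cells moved as well. All 10 smooth muscle markers fell in vehicle NECa, with a summed intensity of 87196 to 94407 in the prostates and 3272 to 35926 in the carcinomas. All 9 secretory luminal markers fell, from 165475 to 188302 in the prostates to 1337 to 5284 in the carcinomas, and 5 of 7 adipocyte markers fell, from 1592 to 2819 in the prostates to 1050 to 1381 in the carcinomas. The part of RNA from fat, smooth muscle or luminal cells in the results on these isoforms was not tested.

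The promoters of 4 of these genes are shown with the motifs of regulators of mitochondrial genes that they hold. RefSeq promoters on GRCm38.p6, running from 250 bases before to 50 bases after the gene start, were found for 74 of the 89 genes. The binding motif of NRF1, a regulator of nuclear genes for mitochondrial proteins, was searched by its 5′ and 3′ GC-rich arms around 1 free base, as capitals show it in Cox6a1 below, and the ETS motif bound by GABP as CCGGAAGT, on both strands and whether or not matches overlap. A gene was counted when any of its promoters held the motif. The NRF1 motif stood in 18 of the 74 genes, or 24.3%, against 5.19% of all 27025 genes with a promoter. The ETS motif stood in 5, or 6.76%, against 4.31%. By complex, NRF1 matches stood in 5 of 30 genes of complex I, 1 of 2 of complex II, 1 of 5 of complex III, 1 of 13 of complex IV and 6 of 14 of complex V, and in 4 of 10 of the other genes. In the sequences below, written 5′ to 3′ on the strand of the gene, capitals mark the matches. Cox6a1 holds 2 NRF1 matches that begin 162 and 117 bases before the start, and Cox8a holds 2 ETS matches, read here on the opposite strand, of which 1 begins 6 bases before the start and the other after it. Cox8b and Cox7a1 hold neither motif in this window, and nor does Cox7a2, the widely expressed counterpart of Cox7a1, so the motifs do not separate the muscle isoforms from the others. The promoter of Cox6a2 was not analysed here. A match describes the letters only.
Cox6a1 promoter, chr5:115348909-115349208, minus strand: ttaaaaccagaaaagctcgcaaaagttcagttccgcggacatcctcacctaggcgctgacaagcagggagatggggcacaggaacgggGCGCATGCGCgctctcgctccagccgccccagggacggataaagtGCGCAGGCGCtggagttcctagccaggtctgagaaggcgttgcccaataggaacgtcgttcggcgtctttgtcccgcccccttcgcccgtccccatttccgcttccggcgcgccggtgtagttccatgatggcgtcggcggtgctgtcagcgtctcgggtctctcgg
Cox8a promoter, chr19:7217567-7217866, minus strand: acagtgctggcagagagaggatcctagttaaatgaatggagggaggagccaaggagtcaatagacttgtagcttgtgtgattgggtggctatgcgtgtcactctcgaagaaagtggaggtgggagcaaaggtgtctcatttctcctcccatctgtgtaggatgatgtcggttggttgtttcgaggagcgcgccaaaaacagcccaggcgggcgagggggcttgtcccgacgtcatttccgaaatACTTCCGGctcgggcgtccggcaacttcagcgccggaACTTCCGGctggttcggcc
Cox8b promoter, chr7:140900397-140900696, minus strand: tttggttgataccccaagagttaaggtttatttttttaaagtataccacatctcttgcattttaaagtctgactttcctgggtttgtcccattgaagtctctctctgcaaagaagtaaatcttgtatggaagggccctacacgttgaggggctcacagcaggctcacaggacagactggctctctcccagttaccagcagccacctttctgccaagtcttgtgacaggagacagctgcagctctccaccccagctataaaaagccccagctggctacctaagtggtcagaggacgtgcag
Cox7a1 promoter, chr7:30183921-30184220, plus strand: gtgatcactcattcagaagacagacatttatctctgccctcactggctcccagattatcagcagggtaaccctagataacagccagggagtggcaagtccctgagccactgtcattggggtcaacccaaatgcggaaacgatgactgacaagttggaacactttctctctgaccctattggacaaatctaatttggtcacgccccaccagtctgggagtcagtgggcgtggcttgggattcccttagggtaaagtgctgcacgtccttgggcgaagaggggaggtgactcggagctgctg

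Complex I had 10 of 33 genes that fell in vehicle NECa and none that rose, with a median of -0.25. Ndufa3, an accessory subunit, measured 11120.3 and 10248 in the prostates and 3629, 3654 and 3910.4 in vehicle NECa. Ndufa1, another accessory subunit of the membrane arm, measured 11714 and 12993 in the prostates and 5147, 4216 and 3936 in vehicle NECa. For both genes every carcinoma lay far below both prostates. Ndufa3 fell by 1.52 ± 0.14 (limma adjusted p = 6.75e-06) and Ndufa1 by 1.49 ± 0.15 (limma adjusted p = 1.25e-05). Ndufs6, of the NADH-binding module, fell by 0.98 ± 0.14 (limma adjusted p = 0.000252). The other called genes of complex I had differences between -0.89 and -0.47. Ndufv1, the core subunit that binds NADH and FMN, overlapped between the groups, at 5706 and 6277 in the prostates and 5488, 5659.8 and 5785 in vehicle NECa (-0.08, limma adjusted p = 0.708).

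In complex II, 1 of 3 genes fell, the membrane anchor gene Sdhc, by 0.73 ± 0.18 (limma adjusted p = 0.00776). Complex III had 3 of 8 genes that fell, at a median of -0.33. Uqcr11, its smallest accessory subunit, measured 11308 and 11648 in the prostates and 5490.1, 5067 and 4768 in vehicle NECa, without overlap, and fell by 1.17 ± 0.16 (limma adjusted p = 0.000157). The hinge protein gene Uqcrh fell by 0.73 ± 0.12 (limma adjusted p = 0.000736) and the accessory gene Uqcr10 by 0.65 ± 0.14 (limma adjusted p = 0.00348).

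Beside the isoforms above, 5 further genes of complex IV fell, which made 9 of 18, at a median of -0.37. Cox4i1, the widely expressed isoform of the largest nuclear-encoded subunit, measured 19659.6 and 21985 in the prostates and 10176, 10069 and 10838 in vehicle NECa. All carcinomas were far below both prostates, with a difference of -1.01 ± 0.13 (limma adjusted p = 0.000127). Cox6b1 fell by 0.76 ± 0.13 (limma adjusted p = 0.000988) and Ndufa4 by 0.51 ± 0.15 (limma adjusted p = 0.0225). The lung isoform Cox4i2 and the testis isoforms Cox6b2 and Cox8c reached at most 262 on any array, with differences of -0.08, 0.34 and -0.11 that did not pass.

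Complex V had 4 of 16 genes that fell and 1 that rose. Atp5o, the stalk protein that confers oligomycin sensitivity, measured 269.8 and 277 in the prostates, 638, 909 and 725 in vehicle NECa and 718, 799 and 780.0 in AGN NECa. All carcinomas stood well above both prostates, and the gene rose by 1.45 ± 0.17 in vehicle NECa (limma adjusted p = 3.94e-05). Of the 3 genes for the c subunit of the rotor ring, which share 1 mature protein, Atp5g1 fell by 0.91 ± 0.18 (limma adjusted p = 0.00225). Atp5g2 differed by -0.29 ± 0.16 and Atp5g3 by -0.34 ± 0.12, and neither passed. The subunit f gene Atp5j2 fell by 0.65 ± 0.11 (limma adjusted p = 0.000916) and the proteolipid gene Atp5mpl by 0.60 ± 0.13 (limma adjusted p = 0.00419). Atp5b, the catalytic beta subunit and among the brightest genes of the list, measured 26035 and 29785 in the prostates and 23839, 24177 and 20176 in vehicle NECa, a difference of -0.30 ± 0.14 that did not pass (limma adjusted p = 0.149).

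Of the 11 other genes, 1 rose and 1 fell. Ndufaf5, an assembly factor of complex I, measured 345 and 339.8 in the prostates and 609.6, 577 and 639.8 in vehicle NECa and rose by 0.83 ± 0.13 (limma adjusted p = 0.000422). Its other probe, whose intensity reached at most 176, differed by 0.10. Cox7a2l, which takes part in building respiratory supercomplexes, fell by 0.49 ± 0.15 (limma adjusted p = 0.0297).

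These directions depended on the scaling of the arrays for many genes. Under quantile normalization the split was 16 higher and 6 lower in place of 2 and 28, and with a normexp background correction it was 2 higher and 41 lower, while the median of all probes moved to -0.20. The median of the 89 genes was 0.05 under quantile normalization, -0.31 under normexp and -0.22 under median centring. The genes called in the same direction under the deposited values, normexp, quantile and median centring were Atp5o and Ndufaf5 among the higher and Cox6a2, Cox7a1, Cox8b, Ndufa1, Ndufa3 and Uqcr11 among the lower. Of the lower genes, Ndufa4, Cox7c, Uqcr10, Atp5j2 and Atp5mpl changed sign under quantile normalization.

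**Figure D2:**
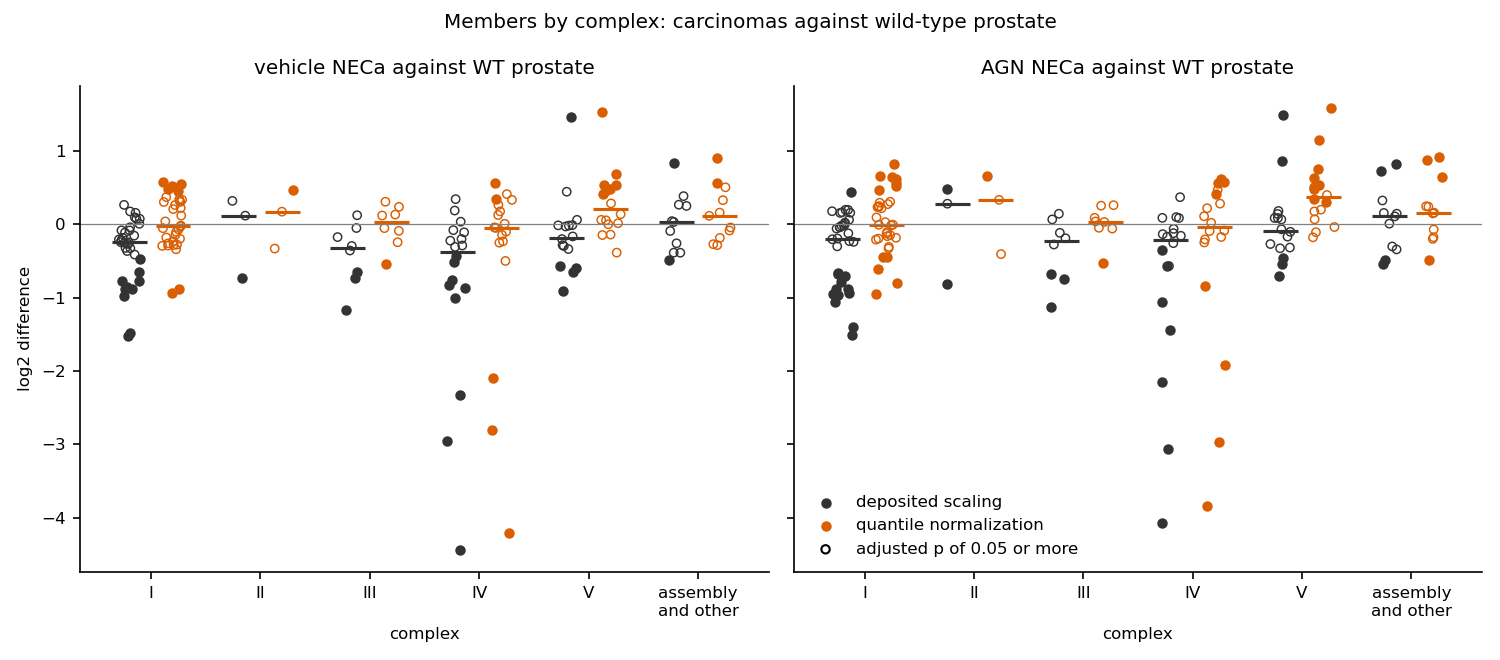
Log2 difference of each gene between NECa and wild-type prostate, by complex, for vehicle NECa (left) and AGN NECa (right). Black points are the deposited scaling, orange points quantile normalization, filled points are called genes and bars are medians. Cox8b, Cox6a2 and Cox7a1 lie at -4.43, -2.96 and -2.32 in vehicle NECa, and most other points move upwards under quantile normalization.

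AGN NECa met the same pair of wild-type prostates, so that this comparison shares its controls with the one above. The muscle isoforms of complex IV and small subunits of complexes I and III were again among the lowest, and Atp5o was again the highest. Here 6 genes rose and 28 fell, against 31% of all probes called, of which 14.4% rose and 16.5% fell, and the median was -0.16 over the 89 genes and 0.04 over all probes. Over the 58 brighter members it was -0.32, and over the 2521 other probes of that level -0.36, with 27 of the 58 called lower against 45.6% of the others and 3 called higher against 23.0%. By complex, 1 rose and 12 fell in complex I, 1 and 1 in complex II, 0 and 3 in complex III, 0 and 7 in complex IV, 2 and 3 in complex V, and 2 and 2 among the other genes. Across both treatments, 36 of the 89 genes were lower in all 6 carcinomas than in both prostates, against 20.6% of all probes, and 9 were higher in all 6, against 18.8%. These shares are of all probes. The share of equally bright probes was not computed, so no excess over such probes is read from them.

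The muscle isoforms were again lowest, with Cox8b at -4.07 ± 0.19 (limma adjusted p = 5.37e-08), Cox6a2 at -3.06 ± 0.70 (limma adjusted p = 0.00515) and Cox7a1 at -2.15 ± 0.31 (limma adjusted p = 0.000214). As in vehicle NECa, 13 of 18 skeletal muscle markers fell. With their level as a covariate Cox6a2 turned to 0.30, and 2 higher and 11 lower genes were called. These values are extrapolated as in vehicle NECa, since the slope comes from the same fit. Cox4i1 fell by 1.06 ± 0.13 (limma adjusted p = 7.93e-05) and Cox8a by 1.45 ± 0.18 (limma adjusted p = 8e-05). Cox6b1 fell by 0.57 ± 0.13 (limma adjusted p = 0.00618) and Cox7a2l by 0.49 ± 0.15 (limma adjusted p = 0.0287). Cox6a1 at -0.14, Cox7a2 at 0.37 and Ndufa4 at -0.26 did not pass, nor did Cox4i2, Cox6b2 and Cox8c, at -0.16, 0.08 and -0.06.

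In complex I the lowest differences were those of Ndufa3, at -1.51 ± 0.14 (limma adjusted p = 6.76e-06), Ndufa1, at -1.40 ± 0.15 (limma adjusted p = 1.92e-05), and Ndufb8, at -1.06 ± 0.15 (limma adjusted p = 0.000195). Ndufv1 fell by 0.94 ± 0.12 (limma adjusted p = 9.05e-05). In complex III, Uqcr11 fell by 1.13 ± 0.16, Uqcr10 by 0.75 ± 0.14 and Uqcrh by 0.68 ± 0.12. In complex V the lowest were Atp5g1, at -0.71 ± 0.18, the F1 delta subunit gene Atp5d, at -0.54 ± 0.16, and Atp5j2, at -0.46 ± 0.11. Atp5g2 at -0.17 and Atp5g3 at -0.27 did not pass. Sdhaf2, which attaches flavin to complex II, fell by 0.54 ± 0.12 (limma adjusted p = 0.00523).

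The 6 genes that rose in AGN NECa were Atp5o, Atp5pb, Sdhb, Ndufs4, Ndufaf4 and Ndufaf5. Atp5pb, the stalk subunit b, measured 1517 and 1389 in the prostates, 2096, 2106 and 1738 in vehicle NECa and 3436, 2508 and 2136 in AGN NECa and rose by 0.86 ± 0.20 (limma adjusted p = 0.00617). Sdhb, the iron-sulphur subunit of complex II, measured 983 and 998 in the prostates, 1229.7, 1274 and 1200.4 in vehicle NECa and 1352, 1448 and 1342 in AGN NECa and rose by 0.48 ± 0.14 (limma adjusted p = 0.0243). For both genes all 6 carcinomas lay above both prostates. Atp5o rose by 1.48 ± 0.17 (limma adjusted p = 3.21e-05), and the complex I assembly factors Ndufaf5 and Ndufaf4 rose by 0.82 ± 0.13 (limma adjusted p = 0.000423) and 0.73 ± 0.22 (limma adjusted p = 0.0255). Ndufaf4 reached 1436 in AGN NECa 3, against 883 and 925 in the others. Ndufs4, of the NADH module, rose by 0.44 ± 0.14 (limma adjusted p = 0.0309), but its 3 other probes differed by 0.06, 0.23 and -0.07. All 6 were called higher under every scaling tried, and of the 28 lower genes 11 were called lower under every one. These 11 were Cox6a2, Cox7a1, Cox8a, Cox8b, Ndufa1, Ndufa3, Ndufb8, Ndufs8, Ndufv1, Sdhaf2 and Uqcr11. Among the others, Cox4i1 at -0.25, Atp5g1 at -0.18, Atp5d at -0.11 and Cox7a2l at -0.07 did not pass under quantile normalization. Quantile normalization gave 24 higher and 11 lower and a median of 0.11 over the 89 genes.

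The direct comparison of AGN with vehicle NECa asked which genes differed between the carcinomas of the 2 groups. Of the 89 genes 1 fell and 0 rose, against 0.0389% of all probes called, 0.0311% lower and 0.00778% higher, and 10 of the 89 had an unadjusted p under 0.05, against 6.14% of probes. The called gene was Ndufv1, at 5488, 5659.8 and 5785 in vehicle NECa and 3194, 3108 and 3064 in AGN NECa. The groups did not overlap and each was tight. The difference was -0.85 ± 0.12, with a 95% interval of -1.11 to -0.60 (limma adjusted p = 0.0484). It kept its size, between -0.90 and -0.84, but did not pass in 11 of the alternative fits, among them those without vehicle NECa 1, 2 or 3 or AGN NECa 2 or 3, and its DLP values of 4737 to 5392 were near those of vehicle NECa.

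Ndufv1 lies on chromosome 19, and all 5 members on that chromosome were lower in every AGN NECa than in every vehicle NECa, while none of the 84 others was. Over all probes, 3.94% were lower without overlap and 7.31% higher. Ndufb8, of the membrane arm of complex I, measured 10354, 8659 and 8093 in vehicle and 5618, 6767 and 4934 in AGN NECa, a difference of -0.65 ± 0.14 (limma adjusted p = 0.19). Cox8a measured 6783, 6553 and 7506 in vehicle and 4579.7, 5985 and 3638 in AGN NECa and differed by -0.58 ± 0.17 (limma adjusted p = 0.4). Ndufs8, an iron-sulphur core subunit of complex I, measured 2462, 2314 and 2225 in vehicle and 1520.2, 1749 and 1723 in AGN NECa and differed by -0.49 ± 0.14 (limma adjusted p = 0.389). In each gene the highest AGN value lay below the lowest vehicle value, but none of the 3 passed. Sdhaf2 measured 257, 299 and 229.5 in vehicle and 213, 217 and 213 in AGN NECa, close to the array background, and differed by -0.28 ± 0.11 (limma adjusted p = 0.709).

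Of the 5 genes, 4 lie close to each other, at 3908863 to 3912774 for Ndufs8, 4007499 to 4012755 for Ndufv1, 7215158 to 7217616 for Cox8a and 10500512 to 10525209 for Sdhaf2, and Ndufb8 lies apart, at 44548571 to 44555442 in GRCm38.p6. Of 577 named genes on chromosome 19, 204 were lower without overlap and 14 higher, against 559 lower and 1108 higher of 16005 genes elsewhere. The median difference was -0.58 for the 5 members and 0.08 for the 84 others, of which 10 were higher without overlap. In complex V, 15 of 16 genes had a difference above 0, against 71.5% of all probes, with Atp5mpl at 0.28 ± 0.12 as the smallest p (limma adjusted p = 0.782). In complexes II and III, Sdhd at 0.16 and Uqcrb at 0.24 had the smallest p and did not pass. Cox8b and Cox6a2 were near the array median in most of the carcinomas of both groups, and Cox8b differed by 0.36 ± 0.15 (limma adjusted p = 0.76). Cox4i1 at -0.06, Cox6a1 at 0.17, Cox6b1 at 0.19 and Cox7a2 at 0.18 did not pass.

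**Figure D3:**
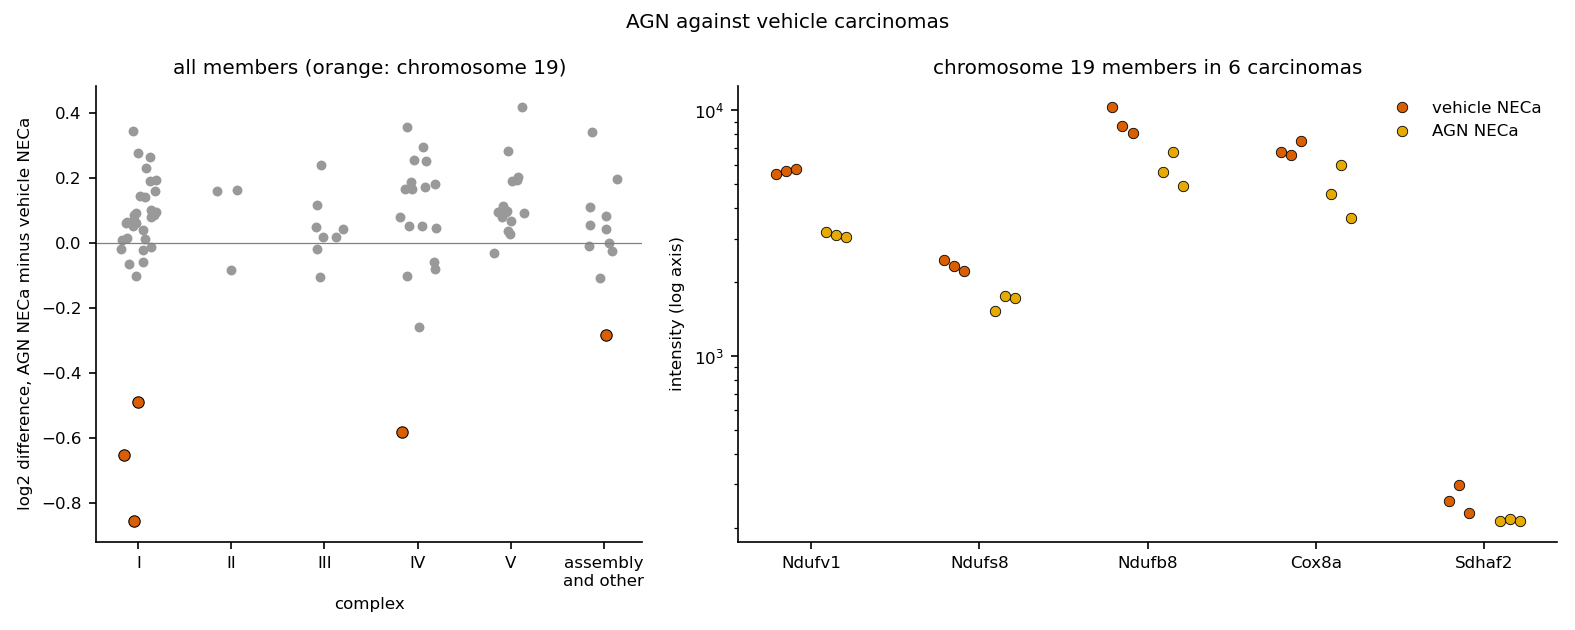
Left, log2 difference between AGN and vehicle NECa of the 89 genes by complex, with the 5 genes on chromosome 19 in orange. Right, intensity of these 5 genes in the 3 vehicle and 3 AGN carcinomas on a log axis. The 5 orange points lie between -0.85 and -0.28, and the 84 others between -0.26 and 0.42.

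Carcinomas were then set against DLP of TRAMP mice with matched treatments, vehicle and AGN, in a fit of all 16 arrays. In this comparison 17 genes rose and 31 fell, while 74.7% of all probes were called, 56.2% higher and 18.5% lower. The median was -0.06 over the 89 genes and 0.13 over all probes. Over the 58 brighter members it was -0.07, and over the 2521 other probes of that level -0.20, with 19 of the 58 called lower against 47.0% of the others and 6 called higher against 32.1%. By complex, 6 rose and 12 fell in complex I, 0 and 1 in complex II, 1 and 3 in complex III, 4 and 8 in complex IV, 2 and 3 in complex V, and 4 and 4 among the other genes. With quantile normalization the split was 26 and 22, with normexp 10 and 32, and with median centring 10 and 34, and the median of the 89 genes turned to 0.05 with quantile normalization. Under all these scalings 9 genes were called higher and 21 lower.

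The muscle isoforms fell here too, and each varied widely within DLP. Cox8b measured 2814 and 4876 in vehicle DLP and 1624 and 1996 in AGN DLP at 16 and 28 weeks, against 151 to 258 in the carcinomas, a difference of -3.89 ± 0.36 (limma adjusted p = 5.31e-07). Cox6a2 measured 2483 and 513 in vehicle and 2178 and 1362 in AGN DLP and 152 to 180 in the carcinomas, a difference of -3.08 ± 0.73 (limma adjusted p = 0.00256). Cox7a1 fell by 1.83 ± 0.35 (limma adjusted p = 0.000529). All DLP values of the 3 genes in vehicle and AGN mice were above all carcinoma values. Of the 18 skeletal muscle markers 15 fell, with a summed intensity of 11954 to 63923 over the 8 DLP arrays. With their level as a covariate Cox8b was at -2.50 (limma adjusted p = 0.000657) and Cox7a1 at -0.34 (limma adjusted p = 0.480). Cox6a2 was at 0.78 (limma adjusted p = 0.00179), and over the 89 genes 8 higher and 16 lower calls were left. The mean log2 level of the markers was 8.19 to 10.58 in DLP and 7.33 to 7.50 in the carcinomas. The ranges do not meet, so these values are extrapolated too.

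Among the genes that rose, Atp5o measured 247 and 333 in vehicle DLP and 266 and 268 in AGN DLP, less than any carcinoma, and rose by 1.45 ± 0.10 (limma adjusted p = 2.79e-08). Ndufaf5 measured 325 and 364 in vehicle and 312 and 312 in AGN DLP and rose by 0.89 ± 0.08 (limma adjusted p = 2.42e-07). Atp5o and Ndufaf5 therefore stood higher in the carcinomas than in the wild-type prostates and in DLP alike. Ndufaf4 rose by 0.84 ± 0.13 (limma adjusted p = 0.000109) and the pseudogene Ndufs5-ps, whose reading may include Ndufs5 RNA, by 0.72 ± 0.12 (limma adjusted p = 0.000179). Cox6a1 measured 4704 and 4921 in vehicle and 3909.7 and 3534 in AGN DLP, below every carcinoma value of 7399 to 9979. It rose by 1.04 ± 0.09 (limma adjusted p = 3.73e-07), and its other probe by 0.95. In complex I the highest were Ndufc1 at 0.50 ± 0.12, whose other probe stood at 0.11, Ndufb7 at 0.44 ± 0.11 and Ndufa12 at 0.38 ± 0.11. Uqcrfs1 at 0.21 and Atp5k at 0.20 passed too, at intensities under 200 on every array. Neither passed under normexp, where they were at 0.13 and 0.11. The risers of complex IV beside Cox6a1 were also dim: Cox6b2 was at 0.28 ± 0.09 (limma adjusted p = 0.0147), Cox4i2 at 0.19 ± 0.05 (limma adjusted p = 0.00583) and Cox7b2 at 0.12 ± 0.04 (limma adjusted p = 0.0113), and none of the 3 exceeded 262 on any array. These 3 did not pass under normexp either, and Cox7b2 turned to -0.01 under quantile normalization.

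Among the genes that fell, Uqcrb, the ubiquinone-binding accessory subunit of complex III, measured 1988 and 2388 in vehicle and 1886 and 1584 in AGN DLP, 589.7, 680.3 and 676 in vehicle NECa and 769, 767 and 759 in AGN NECa. It fell by 1.46 ± 0.11 (limma adjusted p = 7.38e-08), and no DLP array came near any carcinoma. In complex I, Ndufa1 fell by 1.00 ± 0.11 (limma adjusted p = 2.63e-06), Ndufb9 by 0.95 ± 0.10 (limma adjusted p = 1.89e-06) and Ndufa6 by 0.85 ± 0.11 (limma adjusted p = 2.14e-05). The membrane anchor gene Sdhd of complex II fell by 0.50 ± 0.09 (limma adjusted p = 0.000371). In complex V, the stalk subunit gene Atp5h fell by 0.81 ± 0.12 and the F1 subunit genes Atp5a1 and Atp5e by 0.63 ± 0.09 and 0.39 ± 0.07. Sdhaf2 fell by 0.85 ± 0.09 and the complex I assembly factor Ndufaf1 by 0.65 ± 0.09. Cox8a fell by 0.63 ± 0.13, Cox4i1 by 0.46 ± 0.12, Cox7a2 by 0.32 ± 0.09, Cox7a2l by 0.58 ± 0.11, Ndufa4 by 0.38 ± 0.11 and Ndufv1 by 0.28 ± 0.08. Uqcrh fell by 0.57 ± 0.11 and Uqcr11 by 0.45 ± 0.13. Cox6b1 at -0.07, Cox8c at 0.08, Atp5g1 at 0.07, Atp5g2 at -0.18 and Atp5g3 at -0.12 did not pass. The 4 probes of Ndufs4 disagreed, at 0.16, -0.72, -0.62 and -1.14.

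Some of these differences were also present between wild-type whole prostate and wild-type DLP, where no carcinoma is involved, and others were not. Atp5o at 0.05 and Ndufaf5 at 0.01 did not pass there. Cox8b at 2.17 and Cox7a1 at 1.35, the latter not passing, lay opposite to their differences in the carcinomas. There 4 genes were higher and 12 lower in whole prostate, against 5.56% of all probes, of which 3.08% were higher and 2.48% lower. Uqcrb measured 886 and 778 in whole prostate and 1546 and 2043 in wild-type DLP at 16 and 28 weeks, a difference of -1.10 ± 0.17 for whole prostate (limma adjusted p = 0.00283). Atp5h measured 1382 and 1859.7 in whole prostate and 2921 and 4004 in DLP, a difference of -1.09 ± 0.18 (limma adjusted p = 0.00364). Cox6a1 measured 10354 and 9913 in whole prostate and 3819 and 4756 in DLP, higher in whole prostate by 1.25 ± 0.14 (limma adjusted p = 0.000627). None of these 3 genes overlapped between the tissues.

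The other genes higher in whole prostate were Ndufa3 at 0.85 ± 0.17 (limma adjusted p = 0.0111), Ndufa10 at 0.73 ± 0.14 (limma adjusted p = 0.00868) and Cox8b at 2.17 ± 0.56 (limma adjusted p = 0.0369), the last of which stood at 0.60 and did not pass (limma adjusted p = 0.275) without the 16-week wild-type DLP array. Lower were Ndufb9 at -1.06 ± 0.15, Ndufb2 at -0.82 ± 0.12 and Ndufb10 at -0.73 ± 0.18, all of the membrane arm of complex I, and Ndufb11 at -0.47. Sdhd at -0.75 ± 0.14, Cox6c at -1.10 ± 0.25, Cox7a2 at -0.69 ± 0.15, Atp5a1 at -0.64 ± 0.14, Atp5e at -0.43 ± 0.12 and Sdhaf2 at -0.61 ± 0.13 were lower as well. The count was 7 in place of 16 without wild-type prostate 1, 9 without the 16-week and 5 without the 28-week wild-type DLP array.

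Over all 16 arrays, 13 of the 89 genes were higher in each of the 8 DLP arrays than in each of the 8 other arrays, against 2.91% of all probes, and 2 were lower in each, against 5.36%. The 13 were Ndufaf1, Ndufb2, Ndufb5, Ndufb9, Ndufb10, Ndufb11, Sdhd, Sdhaf2, Uqcrb, Cox6c, Atp5a1, Atp5e and Atp5h, and the 2 were Cox6a1 and Ndufc1. Uqcrb ranged from 1546 to 2388 in DLP, with a median of 1923, and from 590 to 886 elsewhere. Cox6a1 ranged from 3354 to 4921 in DLP, with a median of 3865, and from 7399 to 10354 elsewhere. These genes thus separated DLP from carcinoma and from whole prostate together. Of the 48 genes called between NECa and TRAMP DLP, 36 had the same sign between wild-type prostate and wild-type DLP, a pair of comparisons that share no array. The share of all called probes with the same sign was not computed, so the count is not read as particular to these genes. Across the 89 genes the Pearson correlation between the differences of these comparisons was -0.08, and 0.63 without Cox6a2, Cox7a1 and Cox8b. It is given as a description across genes, which are not independent. The labels give no array batch, and the DLP arrays may be a set of their own, so tissue and array set cannot be told apart.

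**Figure D4:**
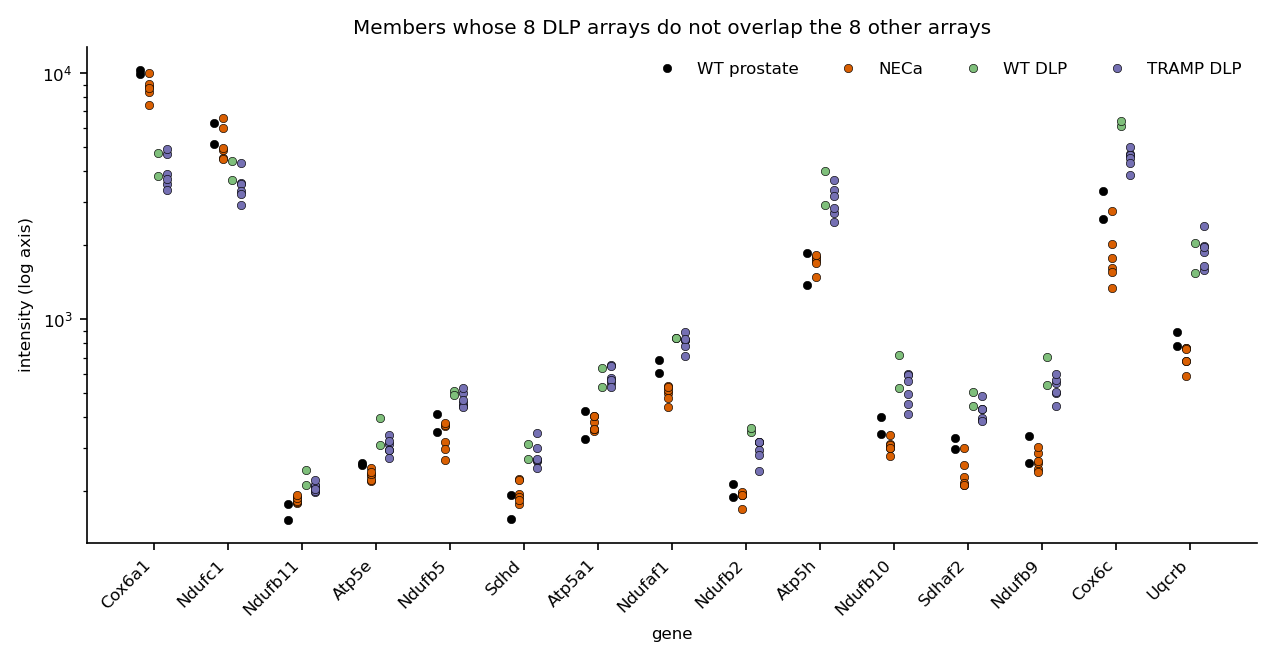
Intensity on each of the 16 arrays, on a log axis, of the 15 genes whose 8 DLP arrays do not overlap the 8 other arrays. The 13 genes at one side are higher in DLP, such as Uqcrb at 1546 to 2388 against 590 to 886 elsewhere, and Cox6a1 and Ndufc1 are lower.

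Between vehicle TRAMP and wild-type DLP, 1 of the 89 genes fell and 0 rose, against 7.5% of all probes, 4.48% lower and 3.02% higher, and the median was -0.09 over the 89 genes and -0.07 over all probes. The called gene was Ndufv3, an accessory subunit of complex I, at 7525 and 7190.3 in wild-type and 5217 and 5082 in vehicle DLP at 16 and 28 weeks. Both vehicle arrays were below both wild-type arrays, and the gene fell by 0.51 ± 0.13 (limma adjusted p = 0.0452). The call was lost with quantile normalization (-0.29), with the mean of its probes (-0.38) and in several other fits.

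The muscle isoforms had the widest differences without passing. Cox8b measured 203 and 2668 in wild-type and 2814 and 4876 in vehicle DLP, higher in vehicle by 2.33 ± 0.67 (limma adjusted p = 0.0688). Cox7a1 measured 321 and 2108 in wild-type and 1798 and 2511 in vehicle DLP, with a difference of 1.37 ± 0.57 (limma adjusted p = 0.163). Cox6a2 measured 182 and 2846 in wild-type and 2483 and 513 in vehicle DLP, so that the order of the groups was opposite at the 2 ages. The skeletal muscle markers followed Cox6a2: Mylpf, a fast muscle myosin light chain, measured 234 and 5459.6 in wild-type and 5315 and 1119 in vehicle DLP. Of the 6 brown adipocyte markers 2 rose in vehicle DLP, Ucp1, at 146 and 182 in wild-type and 514 and 1825 in vehicle DLP, and Cidea, at 166 and 268 in wild-type and 742 and 2506 in vehicle DLP. The others did not pass, and Elovl3 and Cpn2 were at most 165 on these 4 arrays. The wild-type arrays decide these differences. Without the 16-week wild-type array Cox8b stood at 0.76 (limma adjusted p = 0.0192) and Cox6a2 at -1.97 (limma adjusted p = 0.00726), and without the 28-week one Cox8b stood at 3.91 (limma adjusted p = 1.87e-06) and Cox6a2 at 3.27 (limma adjusted p = 0.000658). With the skeletal muscle level as a covariate Cox8b passed too, at 2.09 (limma adjusted p = 0.000195). Sdhc at -0.27, Uqcr11 at -0.51, Atp5k at -0.19 and Ndufaf7 at 0.31 had the smallest p of their classes and did not pass.

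In DLP both agents were set against vehicle, with the same vehicle arrays for each. No gene of the 89 was called for AGN (0% of probes called), where 5 had an unadjusted p under 0.05, against 4.55% of probes. None was called for D/DA either (0% of probes called), where 5 had an unadjusted p under 0.05, against 8.39% of probes. The values lay mostly on 1 side: 80 of 89 genes were below 0 with AGN and 73 with D/DA, while 58.8% and 68.5% of all probes were above 0. The medians were -0.18 and -0.14 over the 89 genes, against 0.02 and 0.04 over all probes, and the former stayed below 0 under normexp (-0.19 and -0.15), quantile normalization (-0.13 and -0.10) and median centring (-0.19 and -0.17).

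The shift lay mainly at 28 weeks. Over the 58 members with a mean intensity of at least 1000, the median difference of AGN from vehicle was -0.05 at 16 weeks and -0.35 at 28 weeks, where 57 of 58 were below 0. The 2521 other probes of that level had medians of 0.02 and -0.03. D/DA gave -0.01 at 16 weeks and -0.35 at 28 weeks, with 54 of 58 below 0 at the later age and medians of -0.01 and -0.02 over the other probes. At each age 1 array stands against 1 array, so that these values have no replicates, and both treatments are read against the same vehicle array. With AGN, 59 genes were lower at both ages, against 21.5% of all probes, and with D/DA 38 were, against 14.2%. Among the 58 brighter members, 40 were lower at both ages with AGN, against 29.5% of the other probes of that level. With D/DA 30 of the 58 were, against 24.6%.

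Single genes show the size of these differences. Cox6a1 measured 4704 and 4921 in vehicle, 3909.7 and 3534 in AGN and 3723 and 3354 in D/DA DLP at 16 and 28 weeks. Both treated groups were below vehicle at either age, by -0.37 ± 0.15 with AGN (limma adjusted p = 0.935) and -0.45 ± 0.15 with D/DA (limma adjusted p = 0.582). Atp5h measured 3345 and 3694 in vehicle, 2704 and 2492 in AGN and 3157 and 2839.8 in D/DA DLP, a difference of -0.44 ± 0.17 with AGN (limma adjusted p = 0.935). Ndufa8 at -0.33, Sdhb at -0.35, Uqcrb at -0.33 and Ndufaf7 at -0.23 had the smallest p of their classes with AGN. With D/DA these were Ndufc1 at -0.35, Sdhc at -0.26, Uqcrfs1 at 0.14, Atp5k at 0.15 and Ndufaf7 at -0.22.

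Cox8b measured 2814 and 4876 in vehicle, 1624 and 1996 in AGN and 1327 and 2032 in D/DA DLP, lower in both treated groups at either age. The differences of -1.04 ± 0.67 with AGN (limma adjusted p = 0.935) and -1.17 ± 0.67 with D/DA (limma adjusted p = 0.644) did not pass. They passed without either wild-type DLP array, whose spread enters the same fit: without the 16-week one the limma adjusted p was 0.0419 for AGN and 0.0152 for D/DA, and without the 28-week one 0.0417 and 0.0141, at unchanged differences. Ucp1 moved with Cox8b, at 514 and 1825 in vehicle, 194 and 643 in AGN and 154 and 725 in D/DA DLP, and so did Cidea, at 742 and 2506 in vehicle, 306 and 827 in AGN and 190.0 and 958 in D/DA DLP. The summed intensity of the 6 brown adipocyte markers was 1888 to 5060 in vehicle, 1169 to 2117 in AGN and 990.2 to 2381 in D/DA DLP, and none of the markers passed. Ppargc1a did not move with them, at 219.8 and 221 in vehicle, 252 and 230.0 in AGN and 238 and 248 in D/DA DLP, and Cpn2 and Elovl3 were at most 165 on these 6 arrays. Their part in the Cox8b values was not tested.

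D/DA and AGN were compared directly at matched ages. No gene was called (0% of probes), 1 of 89 had an unadjusted p under 0.05, against 2.99% of probes, and the median difference of D/DA from AGN was 0.03 over the 89 genes and 0.02 over all probes. The difference was -0.07 for Cox6a1, with a 95% interval of -0.41 to 0.27, and -0.01 for Ndufv1, with -0.31 to 0.29. For Cox8b it was -0.13, with an interval of -1.65 to 1.38, and for Cox6a2 -0.62, with -3.19 to 1.94, so the arrays could not resolve even large differences of the muscle isoforms. Atp5c1 at 0.20 (-0.08 to 0.48) and Ndufaf1 at 0.20 (-0.05 to 0.45) were among the highest. A miss of the threshold does not show that the agents act alike.

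**Figure D5:**
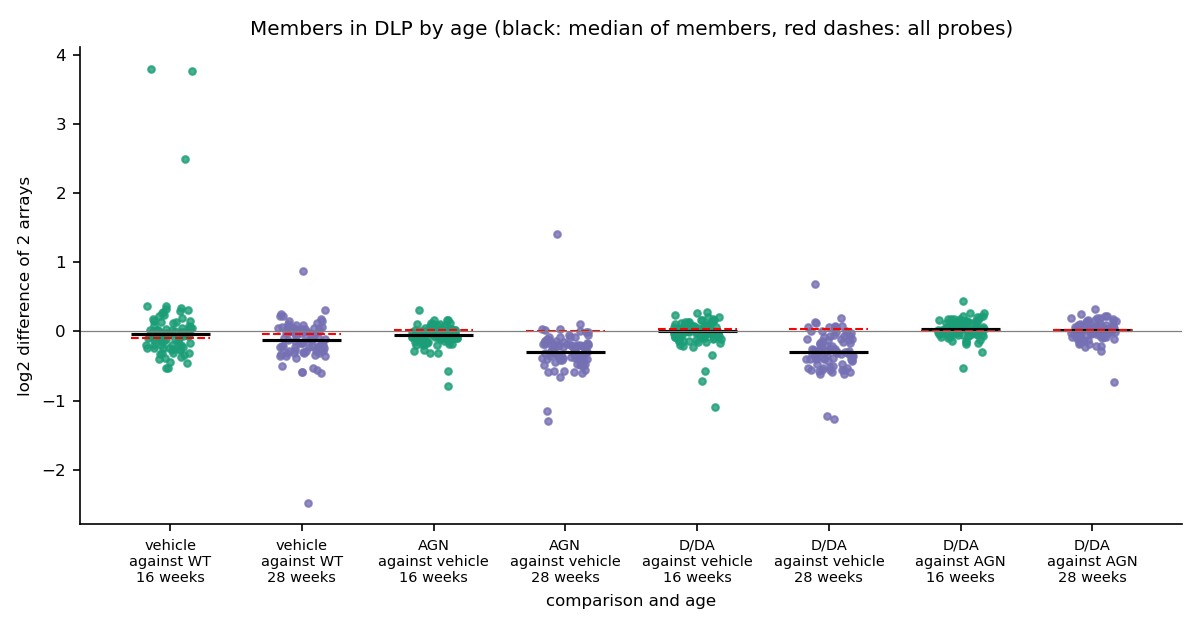
Log2 differences of the 89 genes for each DLP comparison, at 16 and at 28 weeks, with the median of the genes in black and the median of all probes as red dashes. With AGN and with D/DA against vehicle the gene medians are near 0 at 16 weeks (-0.05 and 0.00) and at -0.29 at 28 weeks for both.

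Between 28 and 16 weeks no gene of the list was called in DLP, against 0.0778% of probes, and 4 of 89 had an unadjusted p under 0.05, against 8.82% of probes. Cox8b was at 1.36 ± 0.47 (limma adjusted p = 0.452), and the wild-type arrays alone went from 203 to 2668. Atp5o was at 0.24 ± 0.08 (limma adjusted p = 0.436), the smallest p of the list, with 231 to 266 at 16 and 268 to 333 at 28 weeks.

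The difference between AGN and vehicle was also compared between carcinomas and DLP with an interaction term over all 16 arrays. No gene was called, against 0.0156% of probes, and 15 of 89 had an unadjusted p under 0.05, against 5.18% of probes. The interaction was above 0 for 76 of 89 genes, against 57.2% of probes, with a median of 0.21 against 0.02 over all probes. Ndufv1 had the smallest p, at -0.83 ± 0.16 (limma adjusted p = 0.212). It measured 5392 and 4737 in AGN and 4989.6 and 5299 in vehicle DLP at 16 and 28 weeks, where the order changed with age. Atp5pb at 0.79 ± 0.28 (limma adjusted p = 0.778), Uqcrb at 0.58, Cox6a1 at 0.55 and Sdhb at 0.51 followed and did not pass either.

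Other mitochondrial gene lists were set beside these values. Of 16 tricarboxylic acid cycle and pyruvate dehydrogenase genes, 2 rose and 5 fell in vehicle NECa against wild-type prostate, with Ogdh, a subunit of oxoglutarate dehydrogenase, at -1.30 and the pyruvate dehydrogenase gene Pdha1 at -1.20. Of 10 genes of carriers, porins and electron transfer proteins, 1 rose, the porin gene Vdac3 at 1.44, and 1 fell, the electron transfer flavoprotein gene Etfb at -1.30. Among 25 further assembly factors 1 rose and 2 fell, Cox14 at -0.97 and Cox17, a copper chaperone of complex IV, at -0.95. Of 13 regulators of mitochondrial biogenesis 3 rose and 2 fell, with the mitochondrial DNA packaging factor gene Tfam at 0.78 and the nuclear receptor gene Esrra at -1.23. The 76 genes of the mitochondrial ribosome gave 13 that rose and 12 that fell, with Mrps6 at -2.12 and Mrps34 at -1.50. The medians of these lists lay between -0.07 and 0.20, and that of the 89 genes of oxidative phosphorylation was -0.25 as deposited and 0.05 under quantile normalization. The lists also differ in brightness, and the difference between them was not tested.

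In AGN NECa the same lists gave 4 rises and 5 falls in the cycle genes, 2 and 1 in carriers, 5 and 3 in assembly factors, 3 and 2 in regulators and 18 and 16 in the mitochondrial ribosome. Esrra was at -1.70 and Tfam at 1.05. Against TRAMP DLP, the carcinomas had 3 rises and 6 falls in the cycle genes, 2 and 5 in carriers, with the phosphate carrier gene Slc25a3 at -1.22, 9 and 6 in assembly factors, 5 and 4 in regulators and 31 and 19 in the ribosome. In AGN against vehicle NECa and in the AGN and D/DA comparisons of DLP, no gene of these lists was called. Vehicle against wild-type DLP gave Pdhb at 0.65, Tfam at 0.52 and 2 falls in the ribosome, with Mrps6 at -1.01. With AGN in DLP the medians were -0.09 for the cycle genes, -0.12 for carriers and -0.10 for the ribosome, so these lists too lay below the 0.02 of all probes. The mean log2 level of the further assembly factors was also lower, at 9.08 to 9.14 in AGN and 9.19 to 9.21 in vehicle DLP. That of the regulators overlapped, at 8.38 to 8.40 in AGN and 8.33 to 8.45 in vehicle DLP.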

How the data were processed

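RNA of 16 mouse prostate and carcinoma samples was hybridised to Illumina bead arrays, per the labels' protocols. The deposited values are linear intensities that the authors normalized between arrays with lumi, per the submitters' processing notes, whose version, method and any background correction no source used here states. The deposited intensities were converted to log2 here. Probes were named through the platform annotation: 23978 of 25697 had 1 gene symbol and 1719 had none. The table of signals before normalization has 32 columns, 16 of them signals, whose names match no sample label, so it was not used.

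The genes and lists were chosen with earlier results of these data known. Models were fitted across all 25697 probes with limma 3.58.1 in R 4.3.3 (lmFit, then eBayes with a trend), with two-sided tests, Benjamini-Hochberg adjustment over all probes and a threshold of 0.05. One fit held the 6 carcinoma and 2 wild-type prostate arrays, another the 6 carcinoma arrays, another the 8 DLP arrays with treatment and age as additive terms, and another all 16 arrays for comparisons across tissues. Within each comparison and complex the text names up to 3 called genes at either end, or the gene with the smallest p where none was called. The isoform sets of complexes IV and V, Ndufv1 and, for AGN against vehicle NECa, the genes on chromosome 19 are named as well, and a few others after their values were seen. On simulated data, 66% of 100 probes changed by 1 (log2) and 97% of 100 changed by 2 were recovered for vehicle NECa against wild-type prostate, and 82% and 95% for AGN against vehicle NECa. For NECa against TRAMP DLP 92% and 98% were recovered, and for vehicle against wild-type DLP 75% and 92%. Of the simulated calls, 7.8% were false for AGN against vehicle NECa and 4.1% for vehicle NECa against wild-type prostate. The share was 4.0% for NECa against TRAMP DLP and 1.8% for vehicle against wild-type DLP. Alternatives were normexp background correction with an offset of 50, quantile normalization, median centring, brighter probes only, a minimum of 2-fold, the mean of a gene's probes, a skeletal muscle covariate, a replicate block and leaving out arrays. The number of arrays limits the precision.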

Additional observations from a re-analysis of the deposited data

How the results depend on the processing

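Of the values of the named genes under the alternatives, 4358 kept their direction and their side of the threshold, 183 no longer passed and 43 newly passed. A further 20 changed sign where at least 1 of the 2 values had passed, and 178 changed sign where neither had. With the skeletal muscle level as a covariate, calls numbered 12 in place of 30 for vehicle NECa against wild-type prostate. They were 13 in place of 34 for AGN NECa against wild-type prostate and 24 in place of 48 for NECa against TRAMP DLP. The carcinomas lay below the other tissues in this level, so these counts rest on extrapolation. In DLP there were 9 calls in place of 1 for vehicle against wild type and 2 in place of 0 for 28 against 16 weeks. A minimum of 2-fold left 8, 10, 8 and 6 calls for vehicle NECa and AGN NECa against wild-type prostate, NECa against TRAMP DLP and wild-type prostate against wild-type DLP, and 0 for AGN against vehicle NECa and for vehicle against wild-type DLP.

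The single call of AGN against vehicle NECa, Ndufv1, became 0 under normexp, quantile normalization, median centring, brighter probes only, the muscle covariate, without vehicle NECa 1, 2 or 3 or AGN NECa 2 or 3 singly, and without vehicle NECa 1 and AGN NECa 2 together. The single call of vehicle against wild-type DLP became 0 under normexp, median centring and the mean of a gene's probes, and 2 with brighter probes only. With the replicate block, AGN against vehicle NECa had 3 calls, all lower, and either carcinoma group against wild-type prostate had 28. The deviations of same-numbered carcinomas correlated at r = -0.04, -0.26 and 0.16, and those of differently numbered ones at -0.27 to 0.32. With 3 arrays per group these values cannot show whether the numbers pair the samples.

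Leaving out 1 array at a time gave 25 to 32 calls for vehicle NECa and 26 to 34 for AGN NECa against wild-type prostate, 0 to 1 for AGN against vehicle NECa, 40 to 51 for NECa against TRAMP DLP and 5 to 18 for wild-type prostate against wild-type DLP, with 7 without wild-type prostate 1, 9 without the 16-week and 5 without the 28-week wild-type DLP array. In DLP it gave 0 to 9 for vehicle against wild type, with 9 without the 16-week and 4 without the 28-week wild-type array, 0 to 1 for each agent against vehicle, where the 1 came without either wild-type array, 0 to 2 for age, and 0 for D/DA against AGN and for the interaction.

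Signs of values that had passed before or after turned under quantile normalization for vehicle NECa against wild-type prostate in Cox6a1 (0.34), Ndufa4 (0.12), Atp5g3 (0.53), Ndufv1 (0.45), Uqcr10 (0.13), Atp5j2 (0.14), Atp5mpl (0.013), Cox7c (0.17), Atp5b (0.47), Atp5c1 (0.54), Atp5j (0.41) and Cox5b (0.56). For AGN NECa they turned in Cox6a1 (0.56), Cox6b1 (0.22), Ndufa4 (0.42), Atp5g3 (0.63), Atp5j2 (0.35), Cox7c (0.28), Atp5mpl (0.30), Atp5b (0.49), Atp5j (0.50), Cox5b (0.57), Ndufb6 (0.46) and Ndufc1 (0.52), and for NECa against TRAMP DLP in Cox6b1 (0.21), Atp5g3 (0.39), Atp5j2 (0.26), Cox7b2 (-0.01) and Ndufab1 (-0.10). Under the muscle covariate Cox6a2 turned to 0.50, 0.30 and 0.78 in these comparisons. Cox6a2 was at -1.97 in vehicle against wild-type DLP without the 16-week wild-type array, and at -1.28 in 28 against 16 weeks without either wild-type array. The cause was not tested. Among values that passed on neither side, Atp5g2, for example, turned to 0.05 for vehicle and 0.20 for AGN NECa. Signals near the array median of 151 to 166 limit what can be seen of weakly expressed genes such as Cox4i2, Cox8c and Atp5k.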
